A study of Mus musculus with 6 samples.

Results

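The genes described here encode the vascular endothelial growth factors (VEGF) and the proteins that bind them. They comprise 5 ligands (Vegfa, Vegfb, Vegfc, Vegfd and Pgf), 3 receptor tyrosine kinases (Flt1, Kdr and Flt4) and the 2 neuropilins, Nrp1 and Nrp2. The 10 genes were taken by symbol from the 26778 genes of the authors' deposited table, and all 10 were found and had an adjusted p. RNA was sequenced from bone marrow-derived macrophages, which are primary macrophages grown from marrow of C57BL/6 mice in conditioned medium, taken on day 7 of culture. Wild type cells (Flt-1+/+, also labelled VR1+/+, n = 3 libraries) and cells of mice carrying 1 altered Flt-1 allele (Flt-1+/-, VR1+/-, n = 3 libraries) were both kept in starvation medium at 2% oxygen for 6 h. No library without hypoxia and starvation was analysed here, so every comparison is between genotypes under the challenge. The sources used here do not give the construct behind the altered allele, the age of the mice or whether each library came from its own animal. Every p-value here is read against the variation among these libraries alone, and that variation may be technical.

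VEGF ligands are secreted dimers that drive the growth and leakiness of blood and lymphatic vessels. VEGF-A binds the kinases VEGFR1 (encoded by Flt1) and VEGFR2 (Kdr), VEGF-B and placental growth factor (Pgf) bind VEGFR1, and VEGF-C and VEGF-D bind VEGFR3 (Flt4). Once cut by proteases, VEGF-C also binds VEGFR2, as VEGF-D does in human but not in mouse. Neuropilins lack a kinase, act as co-receptors for VEGF ligands and also receive class 3 semaphorins through plexins. Monocytes and macrophages are a known source of VEGF-A in tissue short of oxygen, where hypoxia-inducible factors raise its transcription, and VEGFR1 is the VEGF receptor best known on these cells.

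The promoters of Vegfa and Vegfb, the members that fell, and of Flt1, the targeted gene, are shown because hypoxia-inducible factors bind DNA at the core letters ACGTG or GCGTG. The windows are from RefSeq (build GRCm38.p6) and run from 250 bases before to 50 bases after an annotated start, 5′ to 3′ along the gene. Capitals mark each ACGTG or GCGTG on either strand, so that CACGT and CACGC are matches on the opposite strand. Vegfa has a second annotated start inside the gene.
Vegfa, outer start, chr17:46032328-46032627, minus strand: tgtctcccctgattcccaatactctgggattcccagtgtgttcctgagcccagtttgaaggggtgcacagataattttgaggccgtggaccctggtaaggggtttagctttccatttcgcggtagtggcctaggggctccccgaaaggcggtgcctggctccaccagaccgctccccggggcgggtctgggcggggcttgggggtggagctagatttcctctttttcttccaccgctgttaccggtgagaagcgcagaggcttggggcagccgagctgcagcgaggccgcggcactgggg
Vegfa, inner start, chr17:46025114-46025413, minus strand: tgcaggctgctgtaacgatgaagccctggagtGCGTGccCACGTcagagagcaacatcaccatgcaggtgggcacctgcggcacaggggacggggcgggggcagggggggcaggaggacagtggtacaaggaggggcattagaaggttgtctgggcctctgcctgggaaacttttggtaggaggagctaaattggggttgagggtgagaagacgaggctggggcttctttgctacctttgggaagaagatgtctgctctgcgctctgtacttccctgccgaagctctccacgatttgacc
Vegfb, chr19:6987602-6987901, minus strand: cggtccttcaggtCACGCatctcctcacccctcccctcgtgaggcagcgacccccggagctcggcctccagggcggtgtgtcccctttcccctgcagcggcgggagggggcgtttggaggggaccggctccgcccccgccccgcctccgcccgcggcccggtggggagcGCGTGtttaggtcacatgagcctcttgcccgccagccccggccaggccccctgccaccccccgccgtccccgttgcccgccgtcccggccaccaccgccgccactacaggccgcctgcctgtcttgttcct
Flt1, chr5:147725962-147726261, minus strand: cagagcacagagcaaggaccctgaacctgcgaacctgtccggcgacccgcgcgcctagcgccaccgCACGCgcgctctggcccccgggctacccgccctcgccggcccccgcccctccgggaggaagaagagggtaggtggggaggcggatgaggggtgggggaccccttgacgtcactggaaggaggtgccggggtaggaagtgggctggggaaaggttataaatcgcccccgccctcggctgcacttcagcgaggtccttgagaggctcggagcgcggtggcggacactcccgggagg

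The window at the outer Vegfa start held no core, and both cores of the inner window lay in a coding exon of Vegfa. Sequence farther upstream than the windows reach was not searched, so a window without a core does not show that the gene lacks a core. Vegfb held 2 cores, whose first bases were at -237 and -81 from the start, upstream of the annotated gene, and Flt1 held 1 at -184, also upstream. Of the members not shown, Nrp2 and Kdr also held 2 cores each, Nrp1 and Pgf 1 each, and Vegfc, Flt4 and Vegfd 0. Over all 12 windows of the 10 members, 7 held a core, against 43.8% of 32851 RefSeq windows of this length. The GC box GGGCGG, searched on both strands, was in 10 of the 12 windows and in 35.7% of all windows. The AP-1 site TGANTCA, which reads as itself on the other strand, was in 0 of the 12 and in 7.81% of all. These matches describe the letters only, and no match was tested for binding.

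Depth ran from about 25250000 to 41660000 counted reads per library over the 6 libraries, and whole counts per library could be recovered from the deposited group means for 26214 genes (97.9%), among them all 10 members. A normalized count is such a count divided by the size factor of its library. Libraries are lettered A, B and C within a genotype, and the letters cannot be matched to replicate numbers of the labels. Macrophage genes were abundant in both groups: Adgre1, which encodes F4/80, had group means of 294266 and 258965 normalized counts in the authors' deposited table. On the first principal component (33.3% of variance) the wild type libraries lay between -40.5 and -26.4, heterozygote A and C at 53.1 and 39.2, and heterozygote B, the nearest to wild type, at 1.53. The libraries wild type C and heterozygote B and C had 0 reads of the mitochondrial gene mt-Co2, and the other 3 had 4070 to 4751 normalized counts, so that both genotypes fell into the same pair of library sets.

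Vegfa and Vegfb were lower in the libraries labelled Flt-1+/- and were the members that passed the authors' test. Vegfa fell to 40.2% and Vegfb to 57.4% of the wild type mean. The test called 2 of 10 members, both lower, and 0 higher, where 6.04% of 15789 tested genes were called in either direction, 3.52% lower and 2.51% higher. At an unadjusted p under 0.05 the deposited test gave the same 2 members and no other, where 15.8% of the tested genes passed, and limma called 0 members higher. The median deposited log2 fold change of the 10 members was 0.04, beside -0.01 over all tested genes. Summed neutrophil markers moved with genotype too, at 850 to 919 normalized counts in wild type and 3672 to 4641 in Flt-1+/- libraries. Most of the wild type sum was Mmp8, with group means of 728 and 705 (adjusted p 0.955 in the authors' deposited table). The part of neutrophil markers in the fall of Vegfa and Vegfb was not tested. In bulk RNA, fewer cells of a type and less RNA per cell cannot be told apart.

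Vegfa (ENSMUSG00000023951, chromosome 17, 46016993 to 46032369, minus strand, build mm10) encodes the main ligand of VEGFR2. It stood at 681, 623 and 939 (wild type A, B and C) and 258, 347 and 298 (heterozygote A, B and C) normalized counts. Every heterozygote library lay below every wild type library, and wild type C was the highest of the 6. The means were 748 ± 168 and 301 ± 44.7 (SD, n = 3 each). Its log2 fold change in the authors' deposited table was -1.12 ± 0.18 (SE; adjusted p 1.42e-07), rank 106 by p among all genes. The deposited fold changes of the members lie nearer 0 than the log2 ratios of the group means (pseudocount 1), for Vegfa and Vegfb too. That log2 ratio was -1.31 for Vegfa and -0.80 for Vegfb. For Flt1, with low counts, it was 0.84, while the authors' deposited table lists 0.30. In limma on the recovered counts the difference was -1.30 ± 0.19 (SE) with an adjusted p of 0.0256, where 2.08% of 15004 genes were called and 1.31% were lower. The limma call was kept without heterozygote B (adjusted p 0.0370) and lost without any other single library (adjusted p 0.0631 to 0.0972).

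Vegfb (ENSMUSG00000024962, chromosome 19, 6982473 to 6987651, minus strand) encodes a ligand of VEGFR1. It stood at 577, 637 and 683 (wild type A, B and C) and 291, 445 and 352 (heterozygote A, B and C) normalized counts. The groups again did not overlap, with heterozygote B the nearest to wild type. The means were 632 ± 53.2 and 363 ± 77.7 (SD, n = 3 each). The log2 fold change in the authors' deposited table was -0.70 ± 0.17 (SE; adjusted p 0.00189). limma did not call Vegfb with all libraries (-0.82 ± 0.17 SE, adjusted p 0.0671) and called it without heterozygote B (-0.98, adjusted p 0.0370). Without any other single library its adjusted p was 0.114 to 0.235.

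Within the library set that had mt-Co2 reads, Vegfa was at 652 normalized counts in 2 wild type libraries and 258 in 1 heterozygote library, and in the other set at 939 in 1 wild type and 322 in 2 heterozygote libraries. Vegfb was at 607 and 291 in the first set and at 683 and 399 in the second. Both ligands were thus lower in Flt-1+/- within each set, with too few libraries there for a test. With a term for library set, limma called both, Vegfa at -1.44 (adjusted p 0.0110) and Vegfb at -0.92 (adjusted p 0.0342).

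The other ligands were scarce, and their groups overlapped. Vegfc (chromosome 8, 54077606 to 54187096), a ligand for lymphatic growth, stood at 48.1, 30.8 and 43.3 (wild type A, B and C) and 51.4, 46.7 and 36.9 (heterozygote A, B and C) normalized counts. Its group means were 40.7 ± 8.93 and 45.0 ± 7.41 (SD, n = 3 each), and its log2 fold change in the authors' deposited table was 0.10 ± 0.24 (SE; adjusted p 0.928). The 95% interval from that error, -0.38 to 0.58, leaves room for a change in either direction.

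Vegfd (chromosome X, 164373378 to 164402650), the other lymphatic ligand, was counted with 8, 7 and 17 reads in wild type and 14, 6 and 5 in heterozygote libraries, and its adjusted p in the authors' deposited table was 0.925. Pgf (chromosome 12, 85166635 to 85177790) was counted with 8, 12 and 6 reads in wild type and 22, 12 and 8 in heterozygote libraries. After division by size factors, Pgf had means of 8.21 ± 2.67 and 13.6 ± 3.79 normalized counts (SD, n = 3 each). Heterozygote C, at 10.9, lay just under wild type B, at 11.2, so the groups overlapped by a single library each. For Pgf the log2 fold change in the authors' deposited table was 0.27 ± 0.25 (SE; adjusted p 0.707).

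**Figure D1:**
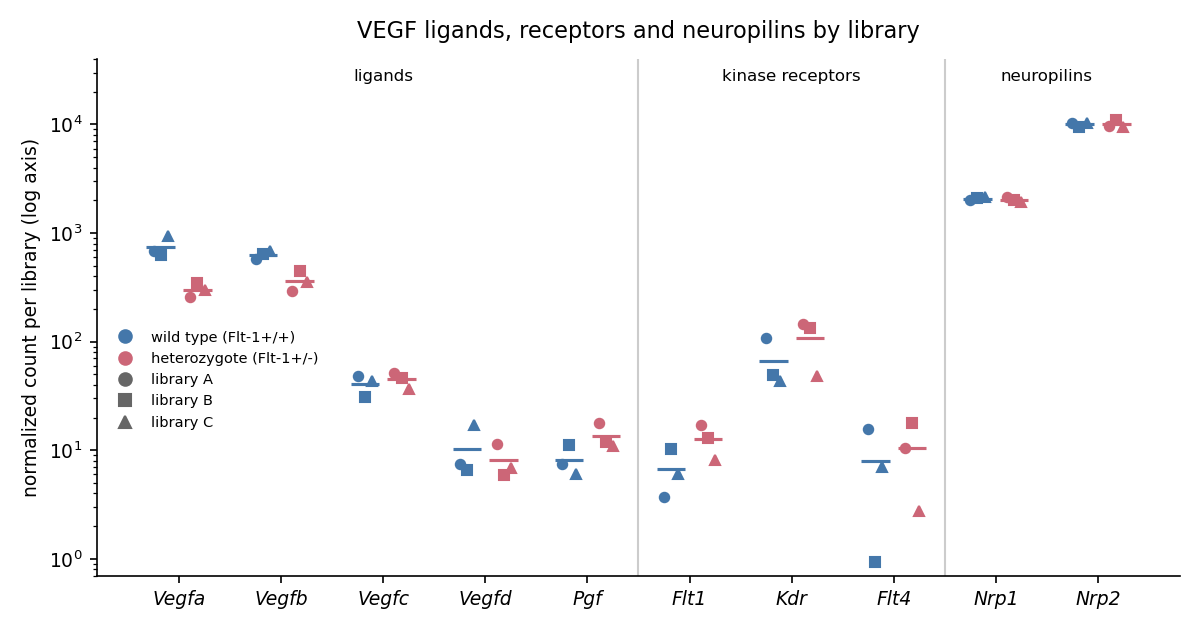
Normalized count of each member in each library on a log axis, with ligands, kinase receptors and neuropilins from left to right; short lines are group means (n = 3) and marker shapes tell libraries A, B and C apart. Vegfa and Vegfb separate the genotypes, Nrp1 sits at 1927 to 2136 and Nrp2 at 9498 to 10989.8, and the other members overlap.

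The kinase receptors were all low, and none passed the test. Flt1 (ENSMUSG00000029648, chromosome 5, 147561604 to 147726011, minus strand) rested on 4, 11 and 6 reads in wild type and 21, 13 and 6 in heterozygote libraries, 21 and 40 in all. Its normalized counts were 3.70, 10.3 and 6.04 (wild type A, B and C) and 17.1, 12.9 and 8.19 (heterozygote A, B and C). The lowest heterozygote library lay below the highest wild type library, and Flt1 had a log2 fold change of 0.30 ± 0.24 (SE; adjusted p 0.641) in the authors' deposited table. The group means, 6.66 ± 3.32 and 12.7 ± 4.47 (SD, n = 3 each), were not lower in the libraries labelled Flt-1+/-, and a reduced level was not detectable at this depth. A count over the whole gene does not tell the altered from the intact allele or the soluble from the membrane-bound form of VEGFR1.

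Kdr (ENSMUSG00000062960, chromosome 5, 75932827 to 75978458, minus strand) stood at 107, 49.4 and 43.3 (wild type A, B and C) and 144, 132 and 47.8 (heterozygote A, B and C) normalized counts. Wild type A and heterozygote A and B were high and the other 3 libraries low, so the split crossed genotype. The means were 66.6 ± 35.3 and 108 ± 52.6 (SD, n = 3 each), with a deposited log2 fold change of 0.37 ± 0.26 (SE; adjusted p 0.561 in the authors' deposited table). Flt4 (chromosome 11, 49609263 to 49652739), the VEGF-C receptor of lymphatic endothelium, was counted with 17, 1 and 7 reads in wild type and 13, 18 and 2 in heterozygote libraries. It was lowest in wild type B and heterozygote C, and its adjusted p in the authors' deposited table was 0.935.

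Nrp2 and Nrp1 had the highest normalized counts of the members, not divided by length, and varied least between libraries of a genotype. Nrp1 (ENSMUSG00000025810, chromosome 8, 128358604 to 128503363), a co-receptor for VEGF-A, stood at 2011, 2095 and 2134 (wild type A, B and C) and 2136, 2028 and 1927 (heterozygote A, B and C) normalized counts. Its coefficient of variation was 3.01% in wild type and 5.14% in Flt-1+/-. Nrp2 (ENSMUSG00000025969, chromosome 1, 62703285 to 62818695), a co-receptor for VEGF-C, stood at 10329, 9565 and 10401 (wild type A, B and C) and 9698, 10989.8 and 9498 (heterozygote A, B and C). The authors' deposited table gives log2 fold changes of -0.03 (95% interval -0.23 to 0.17) for Nrp1 and -0.005 (-0.22 to 0.21) for Nrp2. GENCODE places a microRNA, a short same-strand transcript and an antisense gene within the spans of Nrp1 and Nrp2, each with group means of at most 25.6 normalized counts, and no annotated gene overlaps another member.

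**Figure D2:**
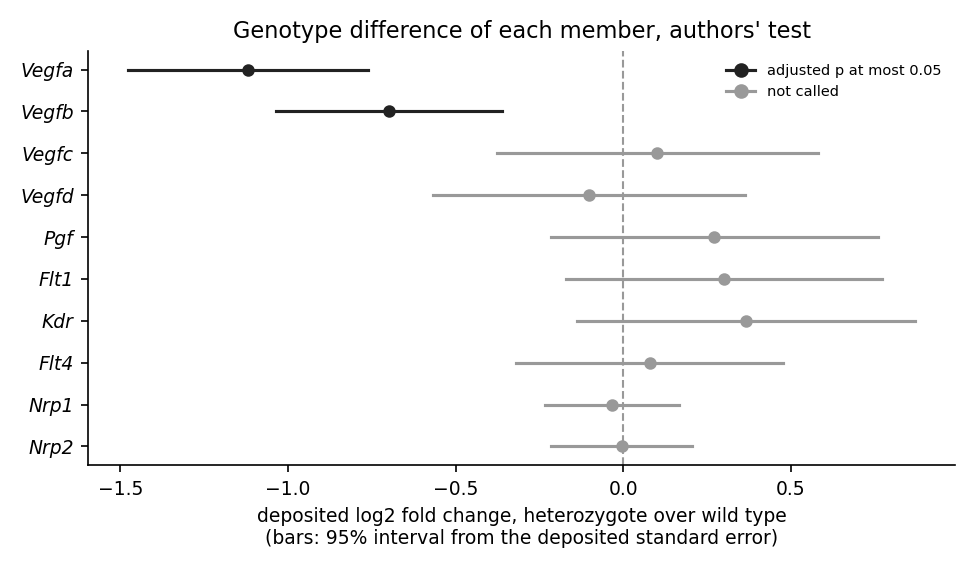
Deposited log2 fold change of each member (heterozygote over wild type) with the 95% interval from the deposited standard error; black marks the members with an adjusted p of at most 0.05. Vegfa, at -1.12, and Vegfb, at -0.70, lie wholly below 0, and the intervals of the other 8 members include 0.

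Read by genotype, groups that did not overlap were found for 2 of the 10 members, in a table where 22.5% of 16796 genes with a mean of at least 5 normalized counts did not overlap in either direction. The share of members without overlap is near that background, and nothing is read from it.

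Levels of different genes were compared per length, as normalized counts per kilobase (kb) of annotated exon. On this scale the order from high to low was Nrp2, Vegfb, Nrp1, Vegfa, Vegfc, Kdr, Vegfd, Pgf, Flt4 and Flt1. Nrp2 stood above every other member in all 6 libraries, at 802 to 928 per kb. Vegfb ranged from 181 to 426 and Nrp1 from 197 to 218 per kb, so that Vegfb was above Nrp1 in every wild type library but not in every heterozygote library. Vegfa, at 60.1 to 219 per kb, overlapped Nrp1 in wild type and lay below it in all 3 heterozygote libraries. Vegfa lay above Vegfc (12.6 to 21.0 per kb) in all 6. Vegfd and Pgf could not be separated within either genotype, and neither could Flt4 and Flt1, which stood lowest at 0.113 to 2.17 and 0.274 to 1.27 per kb. This order, and the shares and ratios below, rest on unions of annotated exons. For Nrp1 the union is 9785 bases and the longest transcript 3645, beside 1605 and 1281 for Vegfb. Dividing by the longest transcript instead would place Nrp1 above both Vegfb and Vegfa in both genotypes.

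The ligand pool was made up mostly of Vegfb and Vegfa. Summed over the 5 ligands it came to 544, 561 and 671 per kb in wild type A, B and C and to 273, 384 and 311 in heterozygote A, B and C. Vegfb accounted for 62.3% and Vegfa for 38.7% of the difference between the group means, with the other 3 ligands adding or removing less than 1% each. Vegfa made up 29.3% ± 3.36 of the pool in wild type and 21.8% ± 0.662 in Flt-1+/- (SD, n = 3 each), without overlap. Vegfb made up 66.7% ± 3.70 and 69.7% ± 3.06, with overlap. Vegfc made up 2.83% ± 0.707 in wild type and 5.83% ± 1.60 in Flt-1+/-, and Pgf 0.488% ± 0.189 and 1.51% ± 0.650. Both shares were without overlap, although the levels of both genes overlapped between genotypes. The pool they are divided by was smaller in Flt-1+/-, mostly through Vegfb and Vegfa, so nothing is read from the separated shares of Vegfc and Pgf.

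The receptor pool was neuropilin transcript almost throughout. Nrp2 made up 79.4% ± 0.714 of receptor and neuropilin transcript in wild type and 79.3% ± 1.52 in Flt-1+/-, and Nrp1 19.8% ± 1.00 and 19.4% ± 1.36 (SD, n = 3 each). Among the 3 kinase receptors alone, Kdr made up 83.1% ± 3.99 in wild type and 84.5% ± 1.95 in Flt-1+/-. Flt1 made up 7.08% ± 5.02 and 7.32% ± 2.22 and Flt4 9.80% ± 6.95 and 8.17% ± 3.61, so the mix of kinase receptors showed no separation by genotype.

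The ratio of ligand to receptor transcript per length, neuropilins included, was 0.498, 0.546 and 0.609 in wild type A, B and C and 0.259, 0.333 and 0.309 in heterozygote A, B and C. Each heterozygote library was below each wild type library, and the means were 0.551 ± 0.0556 and 0.300 ± 0.0378 (SD, n = 3 each). The denominator hardly moved, at 1074 ± 40.2 and 1071 ± 75.1 per kb. With Kdr, Flt1 and Flt4 as the denominator the ratio was 38.7, 88.5 and 110.2 in wild type and 14.7, 21.6 and 49.9 in heterozygote libraries, and the groups overlapped through wild type A and heterozygote C. A ratio of summed members carries no test here.

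**Figure D3:**
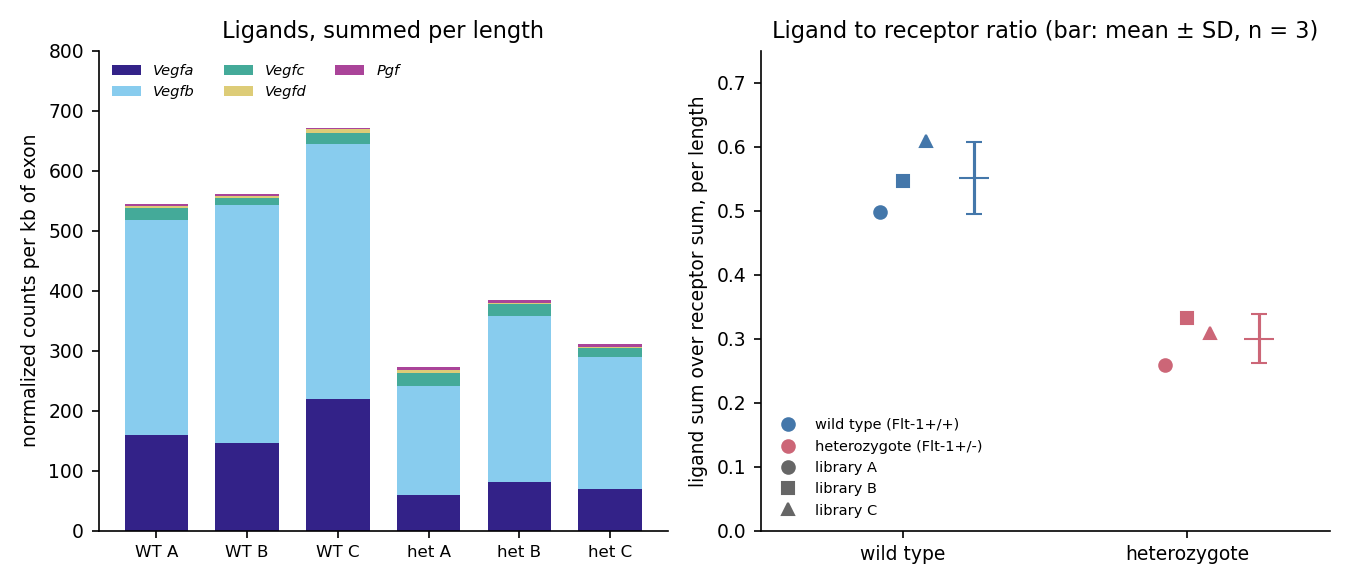
Left, ligands stacked as normalized counts per kb of exon in each library, wild type (WT) and heterozygote (het). Right, the ratio of summed ligands to summed receptors and neuropilins per length, with each library and the mean ± SD (n = 3): wild type libraries lie at 0.498 to 0.609 and heterozygote libraries at 0.259 to 0.333.

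Among 10668 genes with a mean of at least 100 normalized counts, those whose centred log2 values over the 6 libraries lay closest to Vegfa were Socs3, Pim3, Per1, Scarf1 and Pfkl. Their root mean square differences from Vegfa ranged from 0.135 for Socs3 to 0.174 for Pfkl on the log2 scale. Socs3 encodes a feedback inhibitor of cytokine signalling, Pim3 a kinase, Per1 a clock protein, Scarf1 a scavenger receptor and Pfkl the liver subunit of phosphofructokinase. Vegfb lay at 0.284 from Vegfa, and Nrp2, the nearest of the other members, at 0.669. The 2 named genes closest to Nrp1 were Yars2 and Sertad2, at 0.026 and 0.029, followed by an identifier without a symbol and by Epc1 and Mrps27. The points share libraries and their size factors, and these distances describe likeness over 6 libraries only.

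**Figure D4:**
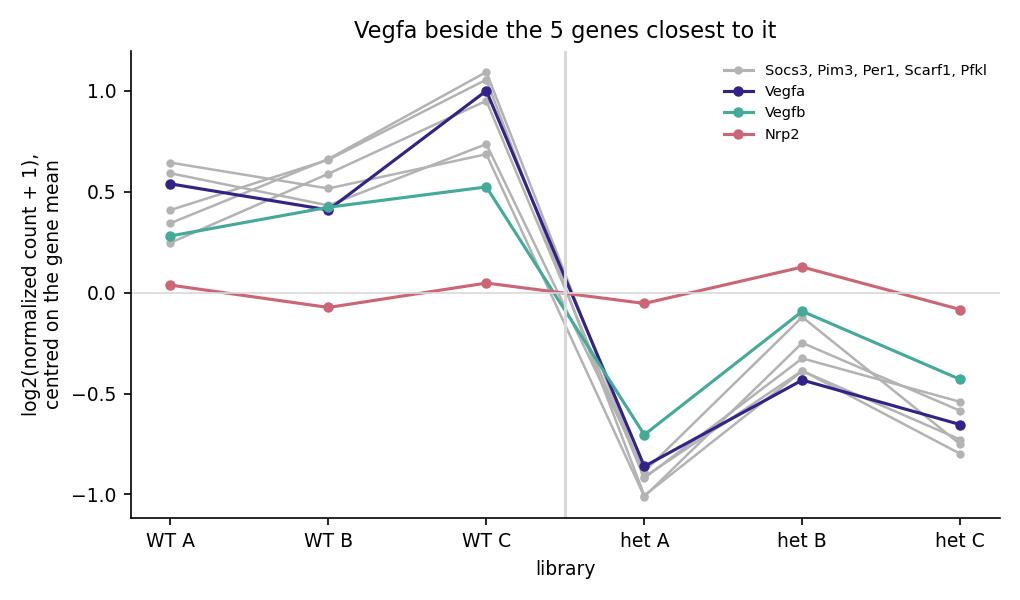
Centred log2(normalized count + 1) over the 6 libraries for Vegfa, Vegfb and Nrp2 and, in grey, for the 5 genes closest to Vegfa; lines join values of a gene and libraries have no order. Vegfa and its neighbours are high in wild type C and low in heterozygote A, Vegfb follows at a smaller range, and Nrp2 stays near 0.

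Genes that act with these members were counted by the authors' test in 6 lists, beside the 6.04% of all tested genes called. Of all tested genes 3.52% were called lower and 2.51% higher, and limma called 2.08% of 15004 genes. Of 19 tested hypoxia targets, 13 fell and 0 rose, with a median log2 fold change of -0.70. P4ha1 and P4ha2, subunits of collagen prolyl 4-hydroxylase, Ldha, lactate dehydrogenase A, and Ankrd37 had the smallest adjusted p. P4ha1 stood at 6029, 5907 and 5868 normalized counts in wild type and at 2775, 2577 and 2443 in heterozygote libraries. limma called 8 of 13 recovered hypoxia targets, all lower.

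Of 20 tested secreted or surface angiogenic factors other than the members, 7 fell and 0 rose. At an unadjusted p under 0.05 the deposited test gave 7 lower and 2 higher, where 15.8% of all tested genes passed. The higher ones were Apln, at group means of 21.1 and 48.0 normalized counts, and Cxcl12, at 10.2 and 26.6. Their adjusted p in the authors' deposited table was 0.101 and 0.125. Angptl4, a secreted inhibitor of lipoprotein lipase, had means of 108 ± 5.98 normalized counts in wild type and 37.3 ± 2.79 in Flt-1+/- (SD, n = 3 each). Cxcl2, a chemokine for neutrophils, and Hbegf, an EGF receptor ligand, fell by 1.94 and 1.60 on the log2 scale of the authors' deposited table. Of 19 such factors, 5 passed in limma, all lower.

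Among 21 tested regulators of Vegfa transcription and transcript stability, 2 fell and 1 rose. Egln3 and Egln1, prolyl hydroxylases that mark hypoxia-inducible factors for breakdown and are themselves hypoxia-induced, went from 858 ± 195 to 252 ± 64.9 and from 2743 ± 311 to 1473 ± 88.4 normalized counts (SD, n = 3 each). Hif3a rose by 0.48 on the log2 scale in the authors' deposited table (adjusted p 0.0229) and was not called by limma (adjusted p 0.0807). Egln3 is also counted among the hypoxia targets.

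Of 30 tested genes of VEGF receptor signal transduction, 1 fell and 2 rose. Hspb1, a small heat shock protein phosphorylated downstream of VEGFR2, stood at 409, 529 and 860 (wild type A, B and C) and 65.2, 93.4 and 49.1 (heterozygote A, B and C) normalized counts. Pik3r1, a regulatory subunit of PI3-kinase, and Fyn, a Src-family kinase, rose by 0.33 and 0.32 on the log2 scale of the authors' deposited table, and limma called neither (adjusted p 0.0720 and 0.0989). Of 9 tested proteases that release or cut VEGF, Adamts1 fell, from 502 ± 30.8 to 116 ± 20.8 normalized counts (SD, n = 3 each). Of 8 tested class 3 semaphorins and plexins, the partners of neuropilins, 0 were called by the deposited test and 0 by limma. At an unadjusted p under 0.05 the deposited test gave 1 of these 8, the plexin Plxna3, at group means of 376 ± 15.6 and 299.9 ± 25.5 normalized counts (SD, n = 3 each). Its adjusted p in the authors' deposited table was 0.261, and 15.8% of all tested genes passed the unadjusted limit.

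Markers of other cells were read beside the members. Over all tested genes the deposited test called 6.04%, 3.52% lower and 2.51% higher, and limma called 2.08% of 15004 genes. With lists this short a single call carries little weight beside those shares. Of 8 neutrophil markers, 7 were called higher by the deposited test and 6 by limma, with 0 lower. Of 8 macrophage markers, 3 were called lower (Mrc1, Csf1r and Cd68) and 0 higher. At an unadjusted p under 0.05 the deposited test gave 3 lower and 1 higher. The higher one was Fcgr1, at group means of 1978 and 2550 normalized counts (adjusted p 0.111 in the authors' deposited table). Adgre1, Lyz2, Itgam and Mertk had an adjusted p of 0.538 to 0.997 there. The 4 recovered macrophage markers summed to 13715 to 21571 normalized counts in wild type and 8531 to 15804.5 in Flt-1+/-. That sum leaves out the abundant Adgre1 and Lyz2, which were not recovered. It also holds Itgam, which varied within genotype, at 1082, 6128 and 1512 in wild type and 6679, 414 and 826 in Flt-1+/-. Of 9 endothelial markers, 5 were tested. Vwf was called higher by the deposited test (adjusted p 0.0482 in the authors' deposited table) and not by limma (adjusted p 0.196), and Cldn5 had a mean of at most 1.63 in either group. At an unadjusted p under 0.05 the deposited test gave Vwf and Cdh5, both higher, of the 5, where 15.8% of all tested genes passed. Cdh5 had group means of 20.8 and 43.3 normalized counts (adjusted p 0.183 in the authors' deposited table). The other tested endothelial markers, Tie1, Pecam1 and Esam, went the other way and were not called. Their log2 fold changes were -0.41, -0.08 and -0.03 (adjusted p 0.468, 0.871 and 0.980 in the authors' deposited table). Tie1 had group means of 25.9 and 12.3 normalized counts. The endothelial sum, 5162 to 6237 over all libraries, was mostly Pecam1, which macrophages also express, so it does not show the changes of the scarcer markers. Of 7 tested stromal markers 1 was called higher, and of 3 tested dendritic markers 1 was called lower. limma called 1 of the 4 macrophage markers it could test lower, 1 stromal marker higher and 0 dendritic markers. At an unadjusted p under 0.05 the deposited test gave 2 stromal markers, both higher, and 1 dendritic marker, lower. The stromal sum was 605 to 922 in wild type and 788 to 1318 in Flt-1+/-, and the dendritic sum 62.5 to 63.4 and 22.0 to 50.5. Of the 3 lymphatic endothelial markers, Lyve1 had group means of 0.616 and 0.994 normalized counts, and the summed level was 127 to 157 and 114 to 132. The part of these markers in the members' levels was not tested.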

How the data were processed

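RNA of 6 libraries was prepared with an rRNA-depleting, strand-specific total RNA kit, per the labels' protocols. FastQC, TopHat 1.0.0, Cufflinks and build mm10 are named in the submitters' processing notes. How reads were counted, and whether by strand, is not given in the sources used here. The authors deposited 1 table, with the columns of DESeq2 output, per the file headers. It holds the signal of each group (mean normalized count), a shrunken log2 fold change with its standard error, a test score, and a p-value with an adjusted p-value, all deposited by the authors. The authors' test, at an adjusted p of 0.05 over 15789 genes, is the main result.

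Whole counts per library were recovered here as the combination of whole reads and size factors that gives each deposited group mean to its 15 printed digits. Recovery was tested on simulated data. Size factors recomputed as median ratios differed by at most 0.19%. The table does not tie recovered libraries to replicate numbers. limma 3.58.1 (R 4.3.3) with trend was fitted to log2(normalized count + 1) for 15004 genes with a mean of at least 10, with Benjamini-Hochberg adjustment, and was tested on simulated data. That filter passed 7 of the 10 members. Lengths are unions of GENCODE exons, whose coordinates for the members equal those of the table. Flt1, Flt4 and Vegfd rest on few reads. Precision is given by SD over 3 libraries, and 95% intervals come from the deposited standard errors.

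The members and lists were chosen with earlier results of these data known. Named genes are the members, up to 4 called genes of each list by smallest deposited adjusted p, and the 5 genes most like Vegfa and the 5 most like Nrp1. A gene that this rule names is not reported here. Plxna3, Apln, Cxcl12, mt-Co2 and the single markers named were chosen after their values were seen. The alternatives were another test, threshold, filter, pseudocount, scaling, length, a term for library set, and leaving out each library.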

Additional observations from a re-analysis of the deposited data

How the results depend on the processing

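The deposited test called 2 members at adjusted p limits of 0.05, 0.1 and 0.01 and with a mean of at least 10. limma with trend and limma voom each called 1, Vegfa, and the cause was not tested. On recovered counts that count of 1 was kept at a mean of at least 1, a pseudocount of 0.5 and total-count scaling, and became 2 (Vegfa and Vegfb) with a term for library set. Leaving out each library gave 0 to 2: 2 without heterozygote B and 0 without each of the other 5, fits with fewer libraries. The share of all genes called in each fit is not given here, so no drop in calls is read as particular to the members or lists. The limma difference of Vegfa was -1.42 to -1.12 over these 6 fits (adjusted p 0.0370 to 0.0972) and that of Vegfb -0.98 to -0.67 (adjusted p 0.0370 to 0.235). The log2 difference in the ligand to receptor ratio was -0.88 with either length, -1.30 for Vegfa alone, -1.52 without neuropilins, and -0.96 to -0.78 on leaving out each library. The levels of the ratio and the shares of each pool are given with exon unions only, and their dependence on length was not tested. The pathway lists held 26 calls of 106 genes by the deposited test, 16 of 90 by limma, and 5 to 16 on leaving out each library: 5 without wild type B, wild type C or heterozygote C, and 8 without wild type A. The sign turned for members near 0: Nrp2 was 0.0201 with total-count scaling, and leaving out each library gave -0.0724 to 0.0329 for Nrp2, -0.0729 to 0.0012 for Nrp1, and -0.0327 to 0.29 for Vegfc. Flt4 passed the filter in 2 of the 6 fits, at -0.31 without wild type B and 1.21 without heterozygote C. No paired analysis was possible because the deposited columns are group means and the recovered libraries carry no replicate number. Depth limits Flt1, Flt4, Vegfd and Pgf, each counted with at most 22 reads in any library.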

Other observations

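Kdr and Flt4 varied widely between libraries of the same genotype. The coefficient of variation of Kdr was 53.0% in wild type and 48.6% in Flt-1+/-, and that of Flt4 94.1% and 72.9%, beside 4.59% and 8.05% for Nrp2.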
